A study of Homo sapiens with 30 samples.

Results

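Hybrid tumoroids with plain DSLBs were compared with DSLB-free tumoroids, 3 cultures of each, which are 6 of the 30 cultures of the series and were chosen by their sample titles. A DSLB, droplet-supported lipid bilayer, is an oil droplet wrapped in a lipid membrane that serves as a synthetic cell. The plain DSLBs were non-functionalized, so no recombinant protein was coupled to them. The paper reports that serum proteins adsorb to synthetic cells that carry no coupled ligand. The cells of every culture were wild-type PANC-1, an epithelial line from a human pancreatic ductal adenocarcinoma, placed in medium with 1% fetal bovine serum, alone or mixed with the droplets. The remaining 24 cultures held DSLBs that presented PD-1, alone or beside a second immune protein, and both groups described here served that study as negative controls. The comparison therefore asks what the droplets without a coupled ligand did to the transcriptome of the tumoroid. Both groups share one cell line, the methods call the cultures parallel biological replicates, and RNA was taken from the whole culture, so fewer cells of a kind and less RNA per cell cannot be told apart.

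PANC-1 cells attach to each other and to adsorbed matrix through integrins and cadherins, and synthetic cells are taken into the growing tumoroid through such an adhesive interface. A lipid-coated droplet adds membrane lipid, an oil phase and a soft surface to the culture. Cells answer sterol shortage through SREBP transcription factors, which switch on the enzymes of cholesterol and fatty acid synthesis, and they answer membrane injury, hypoxia, unfolded proteins and oxidants through separate programmes with well known target genes. Lists of such genes are described below beside the results over all genes.

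RNA-seq of 150 ng of total RNA per culture gave summed expected counts, in units of 1000000, of 37.0, 36.8 and 25.8 in plain DSLB replicates 1, 2 and 3, against 36.9, 55.0 and 54.7 in DSLB-free replicates 1, 2 and 3. DSLB-free replicate 2 stood apart from the other cultures. Its counts differed from each of the other 5 cultures with a chi-square of 38.4 to 77.4 per gene, while the remaining pairs had 3.82 to 8.26 within a group and 7.54 to 12.1 between the groups. This chi-square grows with depth. After scaling for depth, the SD across genes of the log2 ratio was 0.329 to 0.363 in pairs with that culture. In the remaining pairs it was 0.216 to 0.241 within a group and 0.220 to 0.275 between the groups, ranges that overlap. The deviations of DSLB-free replicate 2 from the mean of the 6 correlated with the GC content of the transcripts across genes (r = 0.56), where the other 5 cultures had r between −0.38 and −0.04. Its mitochondrial genes held 3.19% of counts, against 4.73% to 5.19% in the plain DSLB cultures and 4.81% and 4.98% in the other DSLB-free cultures. The share of mitochondrial rRNA was 0.882% ± 0.0543 in plain DSLB cultures and 0.755% ± 0.0960 in DSLB-free cultures (SD, n = 3 each, exact two-sided permutation p = 0.1, which is the smallest that 3 against 3 allows). That share was 0.645% in DSLB-free replicate 2, against 0.804% and 0.817% in the other DSLB-free cultures. The other library measures put to this test, among them the summed count, had an exact two-sided permutation p between 0.2 and 0.8. What these properties of DSLB-free replicate 2 contributed to any result was not tested, and for many of the results below values without it are given.

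The keratins of simple epithelium marked every culture. KRT8 was at 2778, 2548 and 2494 TPM in plain DSLB cultures, against 2623, 2702 and 2428 TPM in DSLB-free cultures (TPM is transcripts per 1000000, scaled for gene length by the authors). VIM, the intermediate filament of mesenchymal cells, was somewhat below it in every culture, at 2336, 2256 and 2246 TPM in plain DSLB cultures, against 2308, 2225 and 2128 TPM in DSLB-free cultures. CDH1, the epithelial cadherin, lay between 33.5 and 49.2 TPM and CDH2, the neural cadherin, between 35.1 and 48.1 TPM over the 6 cultures. The epithelial regulator GRHL2 was at most 0.13 TPM. The label of an epithelial line was thus met by 15 of 16 epithelial genes at 1 TPM or more in all 6 cultures, next to 12 of 16 mesenchymal genes.

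Expression differed little between the groups. Of 18424 genes tested, 2 were higher and none was lower in plain DSLB hybrids than in DSLB-free tumoroids, which is 0.0109% of the genes tested (edgeR quasi-likelihood F test with the 30 libraries fitted together, adjusted p under 0.05). SCG2 rose by 0.68 and WLS rose by 0.32 on the log2 scale. At an unadjusted p under 0.05 edgeR gave 681 genes higher (3.70%) and 442 genes lower (2.40%). DESeq2 on the same libraries called 12 genes higher and 3 lower at an adjusted p under 0.05. The 3 lower were unnamed records with mean counts of 20.8, 24.8 and 27.0 and log2 fold changes of −21.1, −21.5 and −2.53. Among the 12 higher were SCG2, WLS, CD9 and F2RL1, and also PTGES3L-AARSD1 and RBAK-RBAKDN with mean counts of 8.58 and 10.4.

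SCG2 encodes secretogranin II, a granin of regulated secretory granules that is cut into neuropeptides. Its levels were 11.9, 12.5 and 11.3 CPM in plain DSLB hybrids, against 7.60, 7.66 and 7.02 CPM in DSLB-free tumoroids (CPM is counts per 1000000 after TMM scaling of the libraries). The groups did not overlap, and the lowest hybrid lay well above the highest DSLB-free culture. The log2 fold change was 0.68 (standard error 0.110, 95% interval 0.46 to 0.91, edgeR adjusted p = 0.0214). The gene lies on chromosome 2 of GRCh38, from 223596940 to 223602361 on the minus strand. Other granin and secretory granule genes did not pass the test: of 8 tested in that list SCG2 alone was called, and CHGB, chromogranin B, had 36.7, 32.8 and 36.5 CPM in plain DSLB hybrids, against 33.4, 34.7 and 31.5 CPM in DSLB-free tumoroids.

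WLS encodes Wntless, the carrier that brings lipid-modified Wnt proteins to the cell surface. It was at 38.7, 36.4 and 39.0 CPM in plain DSLB hybrids, against 31.2, 29.8 and 30.8 CPM in DSLB-free tumoroids. All 3 hybrids were above all 3 DSLB-free cultures, with a log2 fold change of 0.32 (standard error 0.0536, 95% interval 0.21 to 0.43, edgeR adjusted p = 0.0250). The gene lies on chromosome 1 from 68098473 to 68233120 on the minus strand. One of its promoters, from RefSeq on GRCh38.p14, is shown because WLS was one of the called genes. It is chr1:68232474-68232773 on the minus strand, 250 bases before to 50 after a transcript start, and the capitals mark the reverse complement of TGACG, the core of the cAMP response element, which occurs 1 time in it.
WLS: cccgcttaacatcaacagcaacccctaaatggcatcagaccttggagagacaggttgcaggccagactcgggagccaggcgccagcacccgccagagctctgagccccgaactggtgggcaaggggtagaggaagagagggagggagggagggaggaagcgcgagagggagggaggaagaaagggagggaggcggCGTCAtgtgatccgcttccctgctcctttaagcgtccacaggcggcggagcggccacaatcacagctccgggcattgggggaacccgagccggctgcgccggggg
On either strand TGACG is present in 24.6% of 35116 promoters of this length, so the match is a description of the sequence. The sequence also holds an unmarked ATTGG, the reverse complement of CCAAT, which on either strand is present in 34.6% of these promoters.

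The calls changed when cultures were left out. In the model of all libraries SCG2 lost its call without any one of the 6 cultures: the edgeR adjusted p was 0.110 without DSLB-free replicate 1, 0.110 without DSLB-free replicate 2, 0.136 without DSLB-free replicate 3, 0.177 without plain DSLB replicate 1, 0.0716 without plain DSLB replicate 2 and 0.0608 without plain DSLB replicate 3. The log2 fold change of SCG2 stayed between 0.63 and 0.72 in these fits. Of the same 6 fits WLS was called in the one without plain DSLB replicate 2 (edgeR adjusted p = 0.0228). Its adjusted p in edgeR was 0.110, 0.169 and 0.136 without DSLB-free replicates 1, 2 and 3, and 0.333 and 0.143 without plain DSLB replicates 1 and 3. With the 6 cultures fitted alone edgeR called no gene, with 769 at an unadjusted p under 0.05. With DSLB-free replicate 2 left out and the other 5 cultures fitted alone, a setting chosen after seeing the data, edgeR called 73 genes, 58 higher and 15 lower, among them SCG2 (edgeR adjusted p = 0.00182) and WLS (edgeR adjusted p = 0.0265). In the fit of all libraries without that culture the count was 0, and it was also 0 without DSLB-free replicate 1 and without plain DSLB replicates 1 or 3, 1 without DSLB-free replicate 3 and 3 without plain DSLB replicate 2. The count of calls thus changed with the cultures and the libraries that share the estimate of spread.

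**Figure D1:**
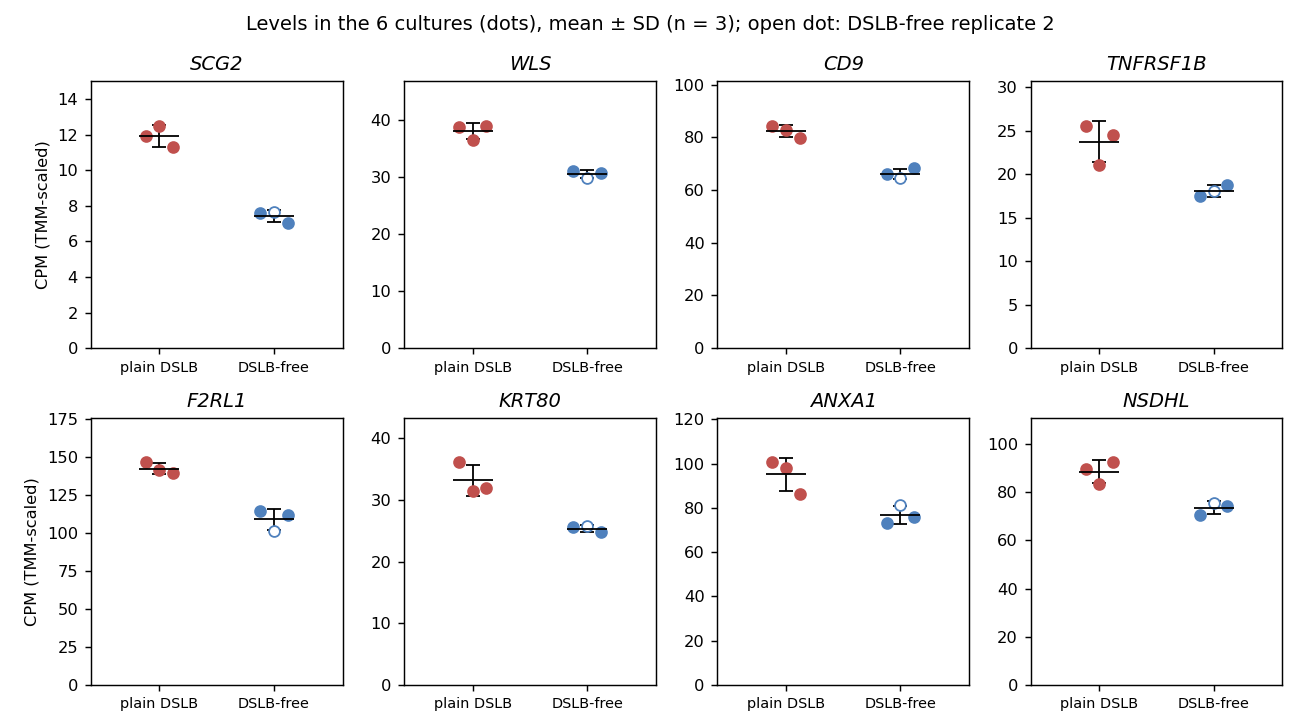
CPM of 8 genes in each culture, plain DSLB on the left and DSLB-free on the right of each panel, with the mean and SD of 3 cultures as bars and DSLB-free replicate 2 as an open dot. In every panel the 3 hybrids lie above the 3 DSLB-free cultures, which the choice of genes without overlap between the groups required. In the edgeR fit of all 30 libraries only SCG2 and WLS passed the test over all genes.

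The genes that followed in the order of p did not pass the threshold in the edgeR fit of all 30 libraries. Those with a mean count of at least 50 are named with their values. Below that count were PTGES3L-AARSD1, a read-through record at 0.45, 0.29 and 0.65 CPM in plain DSLB hybrids, against 0.08, 0.00 and 0.05 CPM in DSLB-free tumoroids (edgeR adjusted p = 0.0639), ENSG00000225339, a lncRNA with a log2 fold change of 0.99 (edgeR adjusted p = 0.0938), and PTHLH, a hormone related to parathyroid hormone, with 0.91 (edgeR adjusted p = 0.0982). CD9, a tetraspanin of adhesive membrane domains, had 84.5, 82.7 and 79.9 CPM in plain DSLB hybrids, against 66.1, 64.4 and 68.2 CPM in DSLB-free tumoroids (log2 fold change 0.31, edgeR adjusted p = 0.0639). TNFRSF1B, the second receptor for tumour necrosis factor, had 25.6, 21.1 and 24.6 CPM in plain DSLB hybrids, against 17.4, 18.0 and 18.8 CPM in DSLB-free tumoroids (log2 fold change 0.39, edgeR adjusted p = 0.0639). F2RL1, a receptor that trypsin-like proteases activate by cleavage, had 146.8, 141.4 and 139.5 CPM in plain DSLB hybrids, against 114.6, 101.3 and 111.7 CPM in DSLB-free tumoroids (log2 fold change 0.39, edgeR adjusted p = 0.0639). DESeq2 on all 30 libraries gave adjusted p of 0.000211 for CD9, 0.00243 for TNFRSF1B and 0.00199 for F2RL1. With the 6 cultures fitted alone the edgeR adjusted p of these genes was 0.681, 0.812 and 0.438. Genes with overlapping groups could not be among those named here.

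KRT80, a keratin of differentiating epithelia, had 36.1, 31.5 and 32.0 CPM in plain DSLB hybrids, against 25.6, 25.8 and 24.8 CPM in DSLB-free tumoroids (edgeR adjusted p = 0.0639). ANXA1, a calcium-dependent binder of membrane phospholipids, had 100.6, 98.2 and 86.4 CPM in plain DSLB hybrids, against 73.2, 81.2 and 75.9 CPM in DSLB-free tumoroids (edgeR adjusted p = 0.0938). The remaining 3 of the 10 named on this side were PLAU, the urokinase plasminogen activator, TNFRSF12A, the receptor of TWEAK, and NSDHL, an enzyme of late cholesterol synthesis. Their log2 fold changes were 0.29, 0.43 and 0.27, and their edgeR adjusted p 0.228, 0.271 and 0.286. DESeq2 on all 30 libraries gave an adjusted p of 0.00290 for KRT80 and for ANXA1. It gave 0.0159 for PLAU, 0.0474 for TNFRSF12A and 0.0294 for NSDHL. With the 6 cultures fitted alone edgeR called none of these. Groups that did not overlap, with the hybrids higher, occurred in 6.91% of all genes tested, and the reverse in 4.42%.

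No gene was lower at an edgeR adjusted p under 0.1, while 10 were higher. AJM1, a component of apical junctions, had the smallest p, with 17.4, 14.9 and 16.2 CPM in plain DSLB hybrids, against 20.9, 27.5 and 18.2 CPM in DSLB-free tumoroids. Its log2 fold change was −0.46 (edgeR adjusted p = 0.286), and it was −0.27 without DSLB-free replicate 2, which had the highest level. CASP9, the initiator caspase of the mitochondrial pathway, had 7.498, 7.34 and 7.78 CPM in plain DSLB hybrids, against 8.89, 10.2 and 8.74 CPM in DSLB-free tumoroids (log2 fold change −0.30, edgeR adjusted p = 0.485). CREB3L1, a membrane-bound transcription factor of the secretory pathway, had 10.1, 9.08 and 9.72 CPM in plain DSLB hybrids, against 11.8, 11.9 and 12.04 CPM in DSLB-free tumoroids (log2 fold change −0.31, edgeR adjusted p = 0.575). The other 7 named genes, ENSG00000279117, SELENBP1, PLPPR2, PEDS1-UBE2V1, MYBBP1A, ENSG00000255224 and S100A1, had log2 fold changes between −0.75 and −0.20 and edgeR adjusted p between 0.575 and 0.596. PEDS1-UBE2V1 is a read-through record that shares sequence with its 2 parent genes, so its level is uncertain.

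The small number of calls came with narrow intervals. Log2 fold changes had a standard error of 0.115 at the median. Among 13829 genes with a mean count of at least 50 over the 6 cultures, the 95% interval lay within a 2-fold change in either direction for 98.5% and within a 1.5-fold change for 91.4%. Of these genes 28 had an estimate beyond 2-fold. Over all 18424 genes the median log2 fold change was 0.00, and 5% of genes lay below −0.43 and 5% above 0.38.

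**Figure D2:**
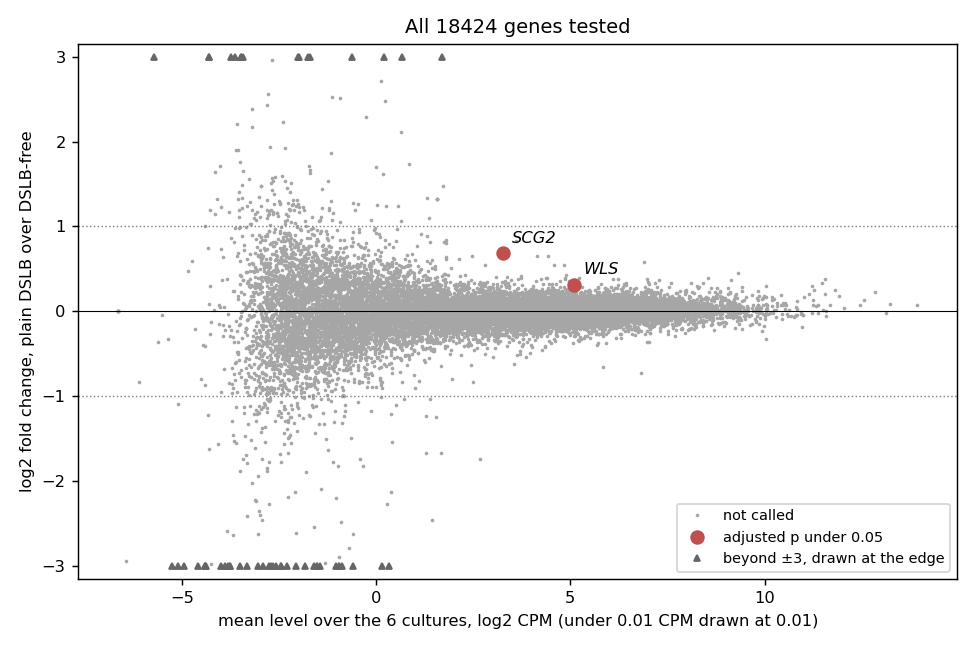
Log2 fold change of plain DSLB over DSLB-free against the mean level in log2 CPM, with 1 point for each of the 18424 genes tested, SCG2 and WLS in red and dotted lines at a 2-fold change. The spread of the points narrows toward high levels, and the called genes lie at log2 fold changes of 0.68 and 0.32.

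The same model set the groups with presented proteins against the same 3 DSLB-free cultures. It called between 3814 and 6019 genes (20.7% to 32.7%) in those groups, and 4862 genes (26.4%) in hybrids with PD-1 alone, against 2 with plain DSLBs. These comparisons share their DSLB-free cultures. The libraries also differed in composition. The 10 most abundant nuclear genes held 5.19% to 5.96% of counts in the 6 cultures described here, against 6.06% to 7.70% in the other 24. What this contributed to the numbers of calls was not tested. WLS was at 38.1 ± 1.42 CPM in plain DSLB hybrids, 41.2 ± 2.91 CPM in PD-1 hybrids and 30.6 ± 0.695 CPM in DSLB-free tumoroids (SD, n = 3 each), and lay between 37.7 and 44.6 CPM in the 24 cultures with presented proteins. CD9 lay between 76.0 and 93.0 CPM in those 24 cultures. SCG2 lay between 7.25 and 12.9 CPM there, a range that held levels of both groups described here. F2RL1 lay between 88.8 and 125.4 CPM and TNFRSF1B between 15.4 and 20.4 CPM in the 24 cultures, below all 3 plain DSLB hybrids. In the groups with presented proteins against DSLB-free, log2 fold changes ran from −0.13 to 0.10 for F2RL1. For TNFRSF1B they ran from −0.09 to 0.06, and neither gene was called in any of these groups. WLS and CD9 were called as higher in every one of these groups (edgeR adjusted p at most 4.35e-05 and 0.00305). SCG2 was called as higher with PD-1 alone and beside CD2, CD27, CD40L or CTLA4. It was not called with PD-1 beside ICOS, LAG3 or TIGIT. Whether plain DSLB hybrids differed from the other hybrids was not tested for these genes.

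The 39 gene lists held 604 different genes that were tested, and SCG2 was the only one called in the edgeR fit of all 30 libraries. Calls in the lists below refer to that fit unless another is named. In the 34 lists with at least 5 genes tested the median log2 fold change ran from −0.06 to 0.21, beside 0.00 over all genes. The values that follow are counts at an unadjusted p under 0.05, to be read against 3.70% higher and 2.40% lower over all genes.

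Sterol and fatty acid synthesis was the list with most genes at this level. Of 24 genes 11 were higher and 1 was lower, and the median log2 fold change was 0.18. DHCR7, which makes cholesterol in the last step of one branch, had 316.2, 285.5 and 312.3 CPM in plain DSLB hybrids, against 236.9, 230.7 and 257.7 CPM in DSLB-free tumoroids, with a log2 fold change of 0.33. The lowest hybrid was above the highest DSLB-free culture, and DSLB-free replicate 2 was the lowest of all. HMGCS1, which makes hydroxymethylglutaryl-CoA early in the pathway, had 108.0, 108.9 and 108.5 CPM in plain DSLB hybrids, against 88.1, 81.5 and 100.4 CPM in DSLB-free tumoroids. SREBF1, the gene of the transcription factor SREBP1, went the other way, with 201.7, 186.6 and 195.3 CPM in plain DSLB hybrids, against 215.6, 255.5 and 205.5 CPM in DSLB-free tumoroids, with a log2 fold change of −0.21, and −0.11 without DSLB-free replicate 2. SCD, the stearoyl-CoA desaturase and the most abundant member at 1170 to 1285 TPM in plain DSLB hybrids, against 886 to 1270 TPM in DSLB-free tumoroids, had a log2 fold change of 0.18 with overlapping groups, and 0.07 without DSLB-free replicate 2. In the edgeR fit of all 30 libraries no member was called, and the smallest adjusted p in the list was 0.286, for NSDHL. Without DSLB-free replicate 2 the count was 4 higher and none lower with a median of 0.16, beside 2.80% of all genes higher and 1.53% lower in that fit. With a GC trend removed from every library, a setting chosen after seeing the data, it was 12 higher and none lower, and with both changes 5 higher. DESeq2 called NSDHL on all 30 libraries (adjusted p = 0.0294) and DHCR7 on the 6 libraries (adjusted p = 0.0227). In the edgeR fit of 5 cultures alone without DSLB-free replicate 2, also chosen after seeing the data, their adjusted p was 0.0174 and 0.0132. With the 6 cultures fitted alone edgeR called no gene.

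**Figure D3:**
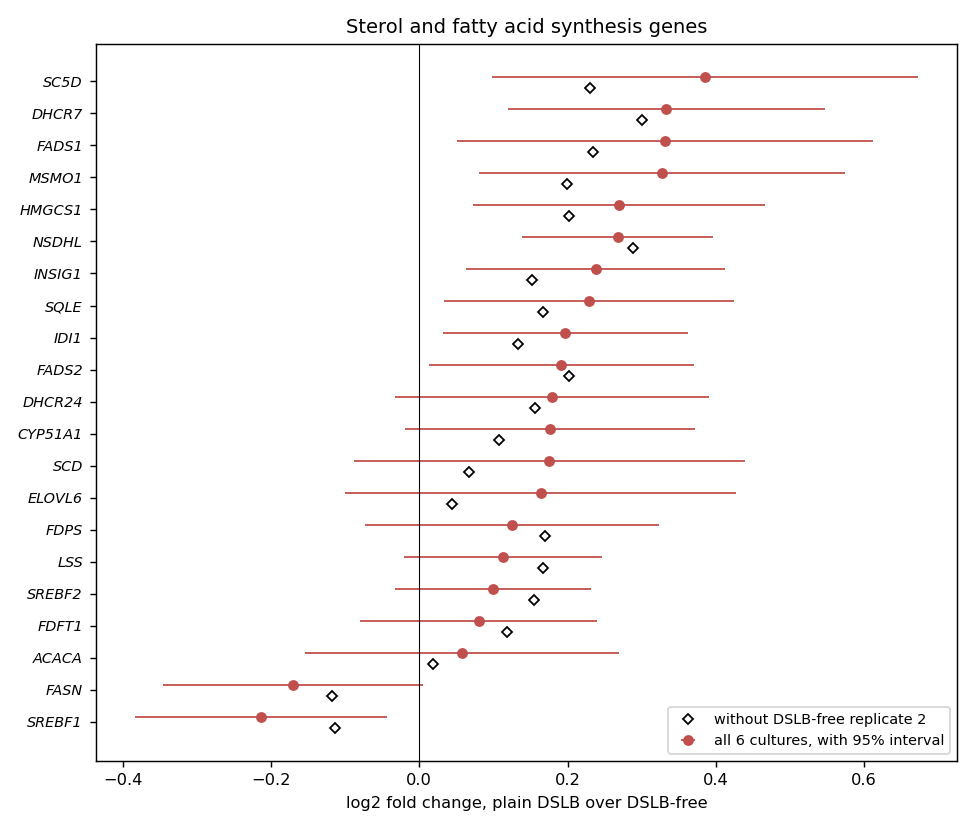
Log2 fold change of plain DSLB over DSLB-free for 21 sterol and fatty acid synthesis genes, with the 95% interval from all 6 cultures (red) and the value without DSLB-free replicate 2 (open diamonds). Most points lie right of 0, FASN and SREBF1 lie left of it, and most diamonds lie closer to 0 than the red points.

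Promoters of 2 of these genes are shown because NSDHL had the smallest p of the list and HMGCS1 opens the pathway. The sequences are from RefSeq on GRCh38.p14, chrX:152830813-152831112 on the plus strand for NSDHL and chr5:43313363-43313662 on the minus strand for HMGCS1. Capitals mark CCAAT or its reverse complement ATTGG, the box bound by NF-Y, a factor that works beside SREBP at several sterol genes.
NSDHL: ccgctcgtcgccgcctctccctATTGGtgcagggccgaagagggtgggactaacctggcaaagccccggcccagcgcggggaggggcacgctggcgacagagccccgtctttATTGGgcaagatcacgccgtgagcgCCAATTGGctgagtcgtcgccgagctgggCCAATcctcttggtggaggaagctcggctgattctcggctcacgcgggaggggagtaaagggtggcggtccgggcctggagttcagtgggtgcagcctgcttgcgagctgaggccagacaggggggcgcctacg
HMGCS1: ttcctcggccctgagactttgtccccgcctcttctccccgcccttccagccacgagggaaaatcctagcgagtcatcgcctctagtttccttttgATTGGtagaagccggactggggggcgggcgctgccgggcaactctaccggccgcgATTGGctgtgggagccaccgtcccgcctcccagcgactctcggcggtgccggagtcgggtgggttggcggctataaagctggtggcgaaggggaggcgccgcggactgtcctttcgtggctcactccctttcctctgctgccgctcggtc
The NSDHL promoter held 5 matches, of which 2 overlap each other in CCAATTGG, and the HMGCS1 promoter held 2. At least 1 match on either strand occurred in 34.6% of all 35116 promoters and at least 5 in 0.359%. Of the 24 listed genes 17 had a promoter in the table, and 10 of these (58.8%) held the box in the promoter listed at the top. A match in these letters is a description and not a binding site.

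Adhesion genes showed no call in the edgeR fit of all 30 libraries. Of 16 integrins tested none had an unadjusted p under 0.05, and the median log2 fold change was 0.12. ITGB1, the beta subunit shared by most matrix-binding integrins and the most abundant of them, had 618, 601 and 587 TPM in plain DSLB hybrids, against 571, 460 and 587 TPM in DSLB-free tumoroids. Its log2 fold change was 0.17 (95% interval −0.04 to 0.39) and 0.09 without DSLB-free replicate 2. Of 25 genes that link integrins to actin none had a p under 0.05 (median 0.00), and of 23 matrix genes 2 were higher and 1 lower (median 0.03). TNC, the matrix glycoprotein tenascin C, had 177.1, 154.1 and 157.3 CPM in plain DSLB hybrids, against 125.1, 126.9 and 134.1 CPM in DSLB-free tumoroids (edgeR adjusted p = 0.703). DESeq2 called TNC on the 6 libraries (adjusted p = 0.0324) and not on all 30. With DSLB-free replicate 2 left out and 5 cultures fitted alone its edgeR adjusted p was 0.0195. Of 15 YAP and TEAD targets 1 was higher and 1 lower (median 0.05). CCN2, one of the best known of them, had 73.1, 61.0 and 66.8 CPM in plain DSLB hybrids, against 71.8, 76.2 and 82.4 CPM in DSLB-free tumoroids.

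Genes of the mesenchymal state were 4 higher and none lower of 15, with a median of 0.10, also without DSLB-free replicate 2 (4 higher, median 0.11). CD44, the hyaluronan receptor, had 1222, 1105 and 1159 CPM in plain DSLB hybrids, against 993, 816 and 1025 CPM in DSLB-free tumoroids (edgeR adjusted p = 0.583). TGFBI, a secreted adhesion protein, had 1043, 980.0 and 959 CPM in plain DSLB hybrids, against 845, 931 and 857 CPM in DSLB-free tumoroids (edgeR adjusted p = 0.659). SNAI2, a repressor of epithelial genes, was at 0.64 to 0.89 TPM in plain DSLB hybrids, against 0.37 to 0.40 TPM in DSLB-free tumoroids. Its log2 fold change was 0.93, with a wide interval of 0.42 to 1.45 (edgeR adjusted p = 0.485). The epithelial list had a median of 0.04, with KRT80 as its 1 gene higher and none lower of 15.

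Of the genes that handle membranes and their cargo none was called. Of 22 lysosomal genes 5 were higher and none lower (median 0.07). GLA, the lysosomal galactosidase, had 58.1, 53.1 and 54.2 CPM in plain DSLB hybrids, against 46.5, 46.6 and 47.7 CPM in DSLB-free tumoroids, and it was separate in every culture (edgeR adjusted p = 0.433). LAMP2, a protein of the lysosomal membrane, had 360, 354 and 341 CPM in plain DSLB hybrids, against 318, 230 and 316 CPM in DSLB-free tumoroids, with a log2 fold change of 0.29, and 0.15 without DSLB-free replicate 2. Without that culture the count was 3 higher and none lower. Of 25 endocytosis genes none was higher and 1 lower (median 0.05), and of 17 membrane repair genes 3 were higher and 1 lower (median 0.05). Of 20 genes of lipid storage and the fatty acid response 1 was higher and 1 lower (median 0.01). PLIN2, which coats lipid droplets inside cells, had 31.3, 27.4 and 31.3 CPM in plain DSLB hybrids, against 26.3, 28.0 and 23.3 CPM in DSLB-free tumoroids, with overlapping groups. PNPLA2, the lipase that opens triglyceride stores, had 195.7, 177.7 and 190.5 CPM in plain DSLB hybrids, against 213.3, 272.6 and 203.6 CPM in DSLB-free tumoroids, with a log2 fold change of −0.29, and −0.15 without DSLB-free replicate 2.

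No gene of the stress programmes was called. Of 24 hypoxia genes 1 was higher and none lower (median 0.01), of 12 heat shock genes 1 higher (median 0.02), of 19 unfolded protein and ATF4 genes 1 higher (median 0.10), of 15 NRF2 targets 2 higher (median 0.07), and of 9 metallothionein and metal response genes none in either direction (median −0.02). LDHA, a glycolytic enzyme under hypoxic control, averaged 1373 TPM in plain DSLB hybrids and 1416 TPM in DSLB-free tumoroids. HSPD1, a mitochondrial chaperonin, had 566, 544 and 558 TPM in plain DSLB hybrids, against 593, 562 and 608 TPM in DSLB-free tumoroids (log2 fold change −0.05, 95% interval −0.21 to 0.10). None of 28 proliferation genes and none of 23 growth arrest and apoptosis genes had an unadjusted p under 0.05, with medians of −0.01 and 0.00. Without DSLB-free replicate 2 the apoptosis list had 1 higher and 3 lower, beside 2.80% of all genes higher and 1.53% lower in that fit. Of 22 immediate early and MAPK feedback genes 1 was lower (median −0.04), and without DSLB-free replicate 2 it was 4, beside the same 1.53%. SPRY2, a feedback inhibitor of receptor tyrosine kinases, had 15.8, 15.7 and 16.3 CPM in plain DSLB hybrids, against 18.5, 17.7 and 19.03 CPM in DSLB-free tumoroids.

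Inflammatory and immune genes split in direction. Of 20 NF-kB and inflammatory genes none was higher and 4 lower (median −0.06), and none remained at that level in either direction without DSLB-free replicate 2. CCL2, a monocyte chemokine, had 20.0, 17.4 and 20.5 TPM in plain DSLB hybrids, against 14.9, 13.0 and 21.5 TPM in DSLB-free tumoroids, with overlapping groups and a log2 fold change of 0.25 (95% interval −0.06 to 0.56), which was 0.14 without DSLB-free replicate 2 and between 0.14 and 0.46 over the fits that left out 1 culture each. Of 23 interferon response genes 3 were higher and none lower (median 0.00). IFIT3, an interferon-induced protein that binds foreign RNA complexes, had 12.2, 11.2 and 10.3 CPM in plain DSLB hybrids, against 9.09, 9.36 and 9.18 CPM in DSLB-free tumoroids (edgeR adjusted p = 0.754). B2M, the light chain of MHC class I, was the 1 higher gene of 19 in its list, with 424, 417 and 390 CPM in plain DSLB hybrids, against 351, 331 and 371 CPM in DSLB-free tumoroids (edgeR adjusted p = 0.668). None of 11 genes of the aryl hydrocarbon receptor pathway had a p under 0.05 (median 0.02). AHR itself had a log2 fold change of 0.08 (95% interval −0.10 to 0.26) and its partner ARNT 0.09 (95% interval −0.06 to 0.24). Without DSLB-free replicate 2 these were −0.02 for AHR and 0.03 for ARNT.

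Of 20 genes for binding partners of the proteins presented in the series, 10 were at 1 TPM or more in all 6 cultures. The other 10 were under 1 TPM in all 6. CD274, the PD-1 ligand PD-L1, was at 0.04, 0.05 and 0.28 TPM in plain DSLB hybrids, against 0.10, 0.01 and 0.16 TPM in DSLB-free tumoroids, under the filter on low counts. The second PD-1 ligand gene, PDCD1LG2, was at most 0.02 TPM, and CD80 and CD86, ligands of CTLA4, were listed at 0 in all 6 cultures. CD58, the ligand of CD2, had 12.5, 13.1 and 12.8 TPM in plain DSLB hybrids, against 10.8, 8.10 and 12.2 TPM in DSLB-free tumoroids (log2 fold change 0.34, and 0.22 without DSLB-free replicate 2, edgeR adjusted p = 0.659). CD40, the receptor of CD40L, had 23.8, 22.8 and 18.1 TPM in plain DSLB hybrids, against 22.7, 19.4 and 19.7 TPM in DSLB-free tumoroids, with a log2 fold change of 0.00 (95% interval −0.14 to 0.14). LGALS3, galectin 3, a partner of LAG3, had 155.6, 168.3 and 169.9 CPM in plain DSLB hybrids, against 143.8, 134.8 and 127.0 CPM in DSLB-free tumoroids. Of the 20 partner genes 12 were tested, and 5 of these were higher and none lower, with a median of 0.11, and 3 were higher without DSLB-free replicate 2.

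Cytosolic ribosomal protein genes were 7 higher and none lower of 30, with a median of 0.05, and 9 higher with a median of 0.14 without DSLB-free replicate 2. RPL23 had 397, 436 and 437 CPM in plain DSLB hybrids, against 345, 291 and 332 CPM in DSLB-free tumoroids (edgeR adjusted p = 0.575). DESeq2 called RPL23 on the 6 libraries (adjusted p = 0.00922) and not on all 30. With DSLB-free replicate 2 left out and 5 cultures fitted alone its edgeR adjusted p was 0.00604. The 13 mitochondrially encoded mRNAs had the highest median of the lists with at least 5 genes tested, 0.21, with no member at a p under 0.05. Their summed level was 69050 to 74850 TPM in plain DSLB hybrids, against 42130 to 76840 TPM in DSLB-free tumoroids, where replicate 2 held the lowest sum, and the median was 0.00 without it. Of 20 nuclear-encoded respiratory chain genes 1 was higher (median −0.01). The remaining lists had medians of 0.05 for TGF-beta targets (2 of 16 higher), 0.01 for cholesterol efflux (none of 7), −0.04 for pancreatic cancer drivers and lineage genes (1 higher and 1 lower of 22), 0.01 for nuclear and intron-retaining RNAs (none of 22) and 0.03 for reference genes (1 of 14 higher).

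**Figure D4:**
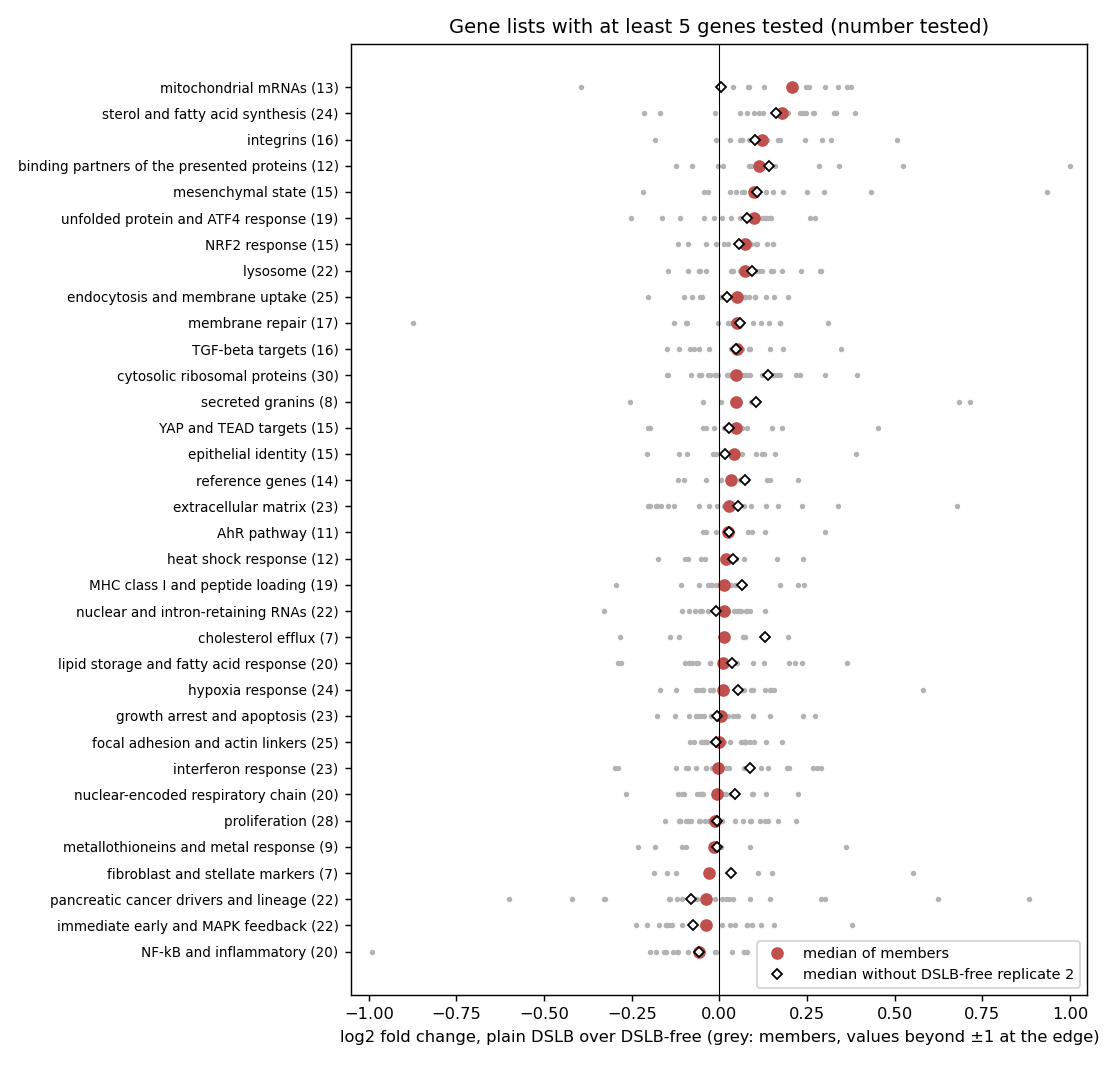
Log2 fold change of plain DSLB over DSLB-free for the 34 lists with at least 5 genes tested, with members in grey, the median over all 6 cultures in red and the median without DSLB-free replicate 2 as open diamonds. The red medians run from −0.06 to 0.21, and the mitochondrial list has its diamond at 0.00.

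Markers of cells other than PANC-1 were low. The 12 T and NK cell markers summed to 1.00 to 1.44 TPM in plain DSLB hybrids, against 0.74 to 1.38 TPM in DSLB-free tumoroids, and CD3D, CD3E, CD27 and NKG7 were listed at 0 in all 6 cultures. The 9 endothelial markers summed to at most 0.84 TPM in plain DSLB hybrids, against 1.08 TPM in DSLB-free tumoroids, and the 12 acinar and endocrine markers to at most 0.45 TPM in plain DSLB hybrids, against 0.28 TPM in DSLB-free tumoroids. The 12 B and myeloid markers summed to 32.1 to 32.9 TPM in plain DSLB hybrids, against 25.5 to 34.0 TPM in DSLB-free tumoroids, of which CD68, a lysosomal protein that other cells make as well, held 30.7 to 31.8 TPM in the hybrids and 23.5 to 32.7 TPM in DSLB-free tumoroids. In the fibroblast and stellate list COL1A1 held nearly the whole sum at 300 to 339 TPM in plain DSLB hybrids, against 321 to 402 TPM in DSLB-free tumoroids, while its partner chain COL1A2 averaged 0.05 TPM in plain DSLB hybrids and 0.14 TPM in DSLB-free tumoroids.

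The baseline of the 6 cultures held 13684 genes at 1 TPM or more in all of them, 11983 of them protein-coding and nuclear. At 10 TPM or more there were 8601 genes, at 100 TPM or more 1406, and at 1000 TPM or more 132. RPS16, a protein of the small ribosomal subunit, was the most abundant nuclear protein-coding gene, at 26795, 29209 and 28925 TPM in plain DSLB hybrids, against 27012, 32194 and 27898 TPM in DSLB-free tumoroids. EEF1A1, the elongation factor that brings tRNA to the ribosome, followed at 15230 ± 923 TPM (SD over the 6 cultures). FBL, the methyltransferase fibrillarin of the nucleolus, came next at 5937 ± 536 TPM. Then followed RPL41 at 5826, RPS3 at 4303, GAPDH at 4098, FTH1 at 4003, TMSB4X at 3964, RPS18 at 3597, ACTG1 at 3555, RPL7 at 3489, TMSB10 at 3436, RPL37A at 3412, PSAP at 3331 and RPL39 at 3282 TPM. None of the 15 was called, and their log2 fold changes ran from −0.05 to 0.28.

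Genes of pancreatic cancer and its lineage were also read at baseline. CDKN2A and CDKN2B, neighbouring inhibitors of the cell cycle that are known to be deleted in PANC-1, were listed at 0 in all 6 cultures. SOX9, a ductal lineage factor, averaged 45.3 TPM in plain DSLB hybrids and 50.4 TPM in DSLB-free tumoroids. GATA6, a factor of the classical subtype, averaged 0.39 TPM in plain DSLB hybrids and 0.53 TPM in DSLB-free tumoroids. The receptor genes of immune cells were near 0, except LAG3, which had 3.14, 3.72 and 2.98 TPM in plain DSLB hybrids, against 3.60, 3.58 and 3.54 TPM in DSLB-free tumoroids.

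RPS16 and FBL lie close to each other in a stretch of chromosome 19 in which many genes were abundant in every culture. Between SPINT2 and AKT2, from 38244035 to 40285536 on GRCh38, limits chosen after the values were seen, 30 of 70 protein-coding genes (42.9%) had a mean of at least 100 TPM, against 7.82% of all 19554 protein-coding genes. In the 70 genes before this stretch there were 8 such genes, and in the 70 genes after it 4. Of the 125 nuclear protein-coding genes with a mean of at least 1000 TPM, 9 lay in the stretch. They were RPS16, FBL, ACTN4, an actin crosslinker, at 2587 TPM, SPINT2, a protease inhibitor, at 1942 TPM, SUPT5H, an elongation factor of RNA polymerase II, at 1916 TPM, EIF3K, a translation initiation subunit, at 1787 TPM, PSMC4, a proteasome ATPase, at 1678 TPM, AKT2, a kinase of growth factor signalling, at 1488 TPM, and TIMM50, a mitochondrial import subunit, at 1111 TPM. Among windows of 50 consecutive protein-coding genes over the genome, the one from ECH1 to AKT2 held the most genes at 100 TPM or more, 23, and the next separate windows, on chromosomes 11 and 17, held 20 each. The stretch contributed 6.11%, 6.29% and 6.32% of the TPM of nuclear protein-coding genes in plain DSLB hybrids, against 6.12%, 6.81% and 6.15% in DSLB-free tumoroids. None of the 60 genes tested there was called, and the median log2 fold change was −0.03. The region around AKT2 and PAF1 is known to be amplified in PANC-1, and DNA was not measured in these cultures.

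**Figure D5:**
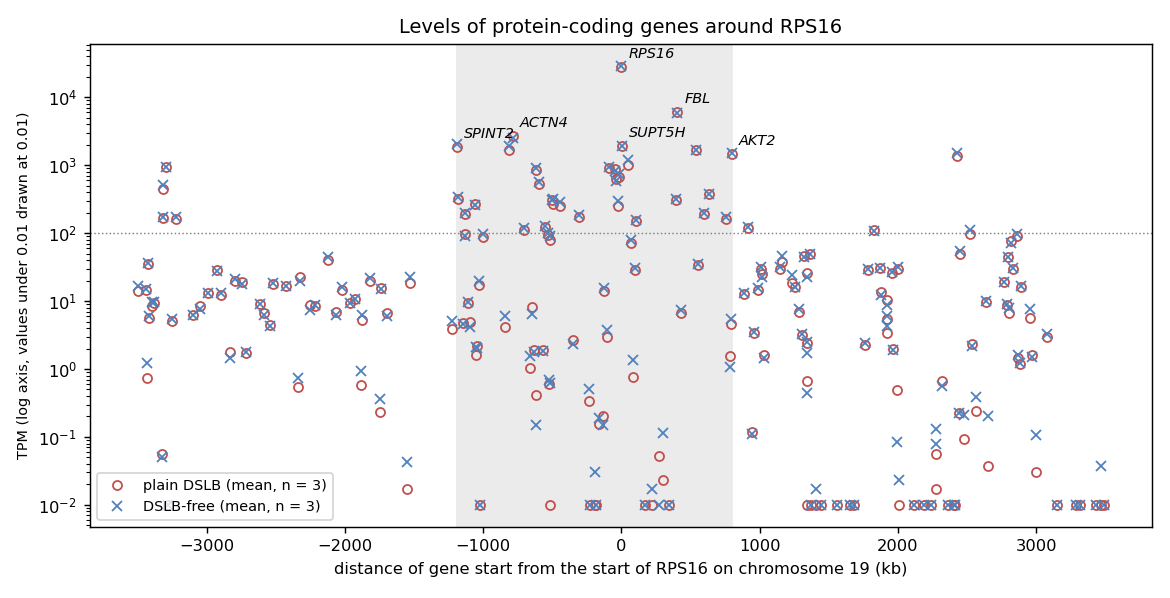
Mean TPM of protein-coding genes (log axis) by the distance of their start from that of RPS16 on chromosome 19, with plain DSLB as circles and DSLB-free as crosses, the stretch from SPINT2 to AKT2 in grey and a dotted line at 100 TPM. Inside the grey band 30 of 70 genes lie at or above the line, and circles and crosses nearly coincide.

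Over the 3274 genes with a mean of at least 50 TPM the median coefficient of variation was 3.84% among the plain DSLB hybrids, 7.86% among the DSLB-free tumoroids and 7.14% over all 6 cultures. In 71.9% of these genes DSLB-free replicate 2 was the highest or the lowest of the 6. The protein-coding genes that varied most, chosen after the values were seen, were P3H1, a collagen prolyl hydroxylase, ARHGAP4, a GTPase-activating protein, and POLR2J3, a relative of an RNA polymerase II subunit. P3H1 had 49.4, 48.0 and 46.2 TPM in plain DSLB hybrids, against 48.4, 88.0 and 48.6 TPM in DSLB-free tumoroids. ARHGAP4 had 126.1, 130.3 and 130.8 TPM in plain DSLB hybrids, against 150.0, 231.7 and 123.3 TPM in DSLB-free tumoroids. In each of these 3 genes DSLB-free replicate 2 was the extreme culture.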

How the data were processed

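RNA-seq libraries were single-end reads of directional libraries. Trimming, alignment by STAR against hg38 and RSEM estimation were run by the authors. Trim Galore 0.3.3, SAMtools 1.3.1 and FastQC 0.11.2 stand in the submitters' processing notes. Which annotation release and strand setting served the estimates is not given in the sources used here: overlapping, antisense, read-through and near-identical genes are uncertain. The deposited expected counts are RSEM estimates, not normalized by the authors, that need not be whole. The deposited TPM values are scaled for length by the authors and serve for levels between genes. The effective length per gene, another column of the deposited files, served only for the length trend.

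Of 60483 records 56321 were matched by identifier to GENCODE v44 on GRCh38. Expected counts were rounded, filtered with filterByExpr by group (18424 genes kept) and scaled by TMM, and edgeR 4.0.16 (robust quasi-likelihood, 1 mean per group, all 30 libraries) tested plain DSLB minus DSLB-free with Benjamini-Hochberg adjustment at 0.05. Intervals use the standard error |log2 fold change| / √F. limma 3.58.1 and DESeq2 1.42.0 ran in R 4.3.3. Tables and plots were made in pandas 2.3.3, matplotlib 3.10.9 and numpy 2.4.6. In the edgeR fit of all 30 libraries the p-values and intervals rest on a spread pooled over every group of the series. Most of these libraries are not among the cultures compared, so that spread is not the spread of the compared cultures alone. It covers cultures of this series only.

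The members and the 39 gene lists were chosen with earlier results of these data known. Named genes were those called, then those of smallest p in each direction whose groups did not overlap and whose mean count reached 50, up to 10. The baseline named the 15 nuclear protein-coding genes of highest mean TPM and the 5 genes of largest coefficient of variation at 50 TPM or more. From each list those called and up to 6 of highest TPM could be named, besides genes the study discusses, and other list members named above were chosen after their values were seen.

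Tested on simulated data for this comparison (18175 genes), edgeR recovered 66 of 100 genes changed by log2 0.5 and 96 of 100 changed by log2 1, with 9 false calls. In the simulation each gene had the same mean in all groups, apart from the changed genes in plain DSLB. No outlying culture and no GC trend were simulated, and the changed genes were not drawn from the lowest levels. Recovery under the conditions of the real cultures was not tested. Alternatives are given below. A few genes of the lists are not reported here.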

Additional observations from a re-analysis of the deposited data

How the results depend on the processing

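The count of 2 higher and 0 lower genes was the same with limma-voom, with DESeq2 size factors in edgeR, with genes of mean count 100 or more and with protein-coding nuclear genes only. DESeq2 on all 30 libraries called 15 genes (12 higher, 3 lower) and on the 6 libraries 29 (20 higher, 9 lower). edgeR called 0 on the 6 libraries, 199 with no filter on low counts (89 higher, 110 lower, of 39960 genes), 6 with a length trend removed (6 higher), 1 with the 6 libraries thinned to the smallest (1 higher) and 10 at an adjusted p of 0.1 (10 higher). Of the 199 genes 1 was among the 2 called in the filtered fit, and the cause was not tested. limma called 0 on log2(TPM + 1), and 1 on log2(TPM + 0.1), which was lower with 0 higher. Leaving out each culture in turn gave 0 to 3 calls, 0 to 2 higher and 0 to 1 lower. Chosen after seeing the data were a GC trend removed (0 calls, 1085 genes at an unadjusted p under 0.05), edgeR on 5 libraries with DSLB-free replicate 2 left out (73 calls, 58 higher and 15 lower), and a GC trend removed with DSLB-free replicate 2 left out (0 calls). SCG2 was called in 11 of 22 settings and WLS in 9, with log2 fold changes of 0.58 to 0.78 and 0.29 to 0.35.

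Deviations of same-numbered cultures correlated at −0.02, −0.03 and 0.13 across genes, and those of differently numbered cultures at −0.12 to 0.14. With 3 cultures per group these values cannot decide whether the replicate numbers pair the cultures. The main fit did not pair them. With the replicate block edgeR called 5 genes (5 higher), SCG2, F2RL1, PTGES3L-AARSD1, WLS and CD9. Of 833 refits of list medians 57 moved by more than the spread between replicates. The number of genes detected in all 6 cultures was 14957 at a limit of 0.5 TPM, 12432 at 2 TPM and 13812 with TPM rescaled without mitochondrial genes, and 13717 to 13795 without 1 culture. Depth limits low genes: beyond the 13829 genes with a mean count of 50, intervals often exceed a 2-fold change.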

Other observations

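The largest coefficients of variation at 50 TPM or more belonged to 4 records of 5.8S rRNA (RNA5-8SN1, RNA5-8SN2, RNA5-8SN3 and an unnamed copy), whose TPM values were equal to each other in every culture, so that they are 1 estimate split over near-identical copies. Each was at 47.3, 172.5 and 21.04 TPM in plain DSLB hybrids, against 64.4, 23.1 and 21.1 TPM in DSLB-free tumoroids. The fifth record, ENSG00000253945, was at 59.9, 86.5 and 6.72 TPM in plain DSLB hybrids, against 81.1, 76.8 and 63.6 TPM in DSLB-free tumoroids.

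MALAT1, a noncoding RNA kept in the nucleus, was chosen after its values were seen. It had 927, 967 and 895 CPM in plain DSLB hybrids, against 1189, 1130 and 1183 CPM in DSLB-free tumoroids, so the groups did not overlap, with a log2 fold change of −0.33 (edgeR adjusted p = 0.883 over all 30 libraries, with 442 genes of all those tested lower at an unadjusted p under 0.05). DESeq2 on the 6 libraries gave an adjusted p = 0.00139. Over the alternatives that kept this gene its adjusted p ran from 0.00139 to 1.00.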
